A study of Homo sapiens with 8 samples.

Results

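The genes of sterol and fatty acid synthesis were followed in WM902B cells, an established human primary melanoma line that carries an activating BRAF mutation, per the labels. The set was a list of 37 gene symbols covering the SREBP system, cholesterol synthesis and fatty acid synthesis, taken by symbol from a table of 4616 genes, and 30 of the 37 had a row in it. One condition carried a control hairpin of scrambled sequence (shSCR), the other one directed at the long non-coding RNA TINCR (shTINCR). All were at passage 18 and were given 100 µg/ml cycloheximide, a translation inhibitor, for 5 min. Ribosome-protected fragments (footprints) and poly(A) RNA were sequenced in 2 biological replicates for each hairpin, which gave 8 libraries in 4 groups. The measured quantity was translational efficiency (TE), the ratio of footprints to mRNA for a gene.

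The values came from 1 table in which the authors compared shTINCR with shSCR cells. It gave 1 log2 TE for each condition, 1 final log2 change and 1 final p-value for each gene, with no value of any library. Depth and the spread between replicates are therefore unknown, and no SD or interval could be given. A gene's TE can move through its footprints, its mRNA or both, and the table does not separate them. The median log2 TE of all genes was 0.0078 in shSCR and 0.0019 in shTINCR cells, so each value is relative to the typical gene of its condition. TINCR had 0 rows, and its silencing could not be checked. Of 9 melanocytic markers 8 had a row, against 1 of 6 fibroblast and 0 of 4 keratinocyte markers; a row shows that a gene entered the comparison and is no expression level. The 7 members with no row were SCAP, MVK, PMVK, MVD, TM7SF2, HSD17B7 and ELOVL6, none of them under an older name, and they were not analysed here.

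Cells make cholesterol and fatty acids from cytosolic acetyl-CoA, and the SREBP transcription factors switch on the genes of both routes. SREBPs are made as precursors in the endoplasmic reticulum membrane, where they are bound by the escort protein SCAP. When sterols are plentiful, INSIG proteins hold the complex in place. When sterols are scarce, the complex moves to the Golgi, and cleavage frees the active factor.

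The SREBP regulators with a row all had higher TE in shTINCR cells, whereas the enzymes of both routes moved in both directions. Of the 30 measured members, 6 rose and 4 fell at the authors' adjusted p below 0.05, and 20 did not pass. The genes that rose were SREBF1, SREBF2, INSIG1, LSS, DHCR7 and FADS2, and those that fell were MSMO1, SC5D, ELOVL5 and ACSL4. The called members made up 33.3% of those measured, against 16.4% of all 4616 genes. By direction, 6 of 30 members rose, against 8.23% of all genes, and 13.3% fell, against 8.17%. The members' median log2 change was -0.04, next to 0.02 over all genes, and their SD across genes was 0.32, next to 0.249. These shares and medians are descriptions of a chosen list and carry no test.

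**Figure D1:**
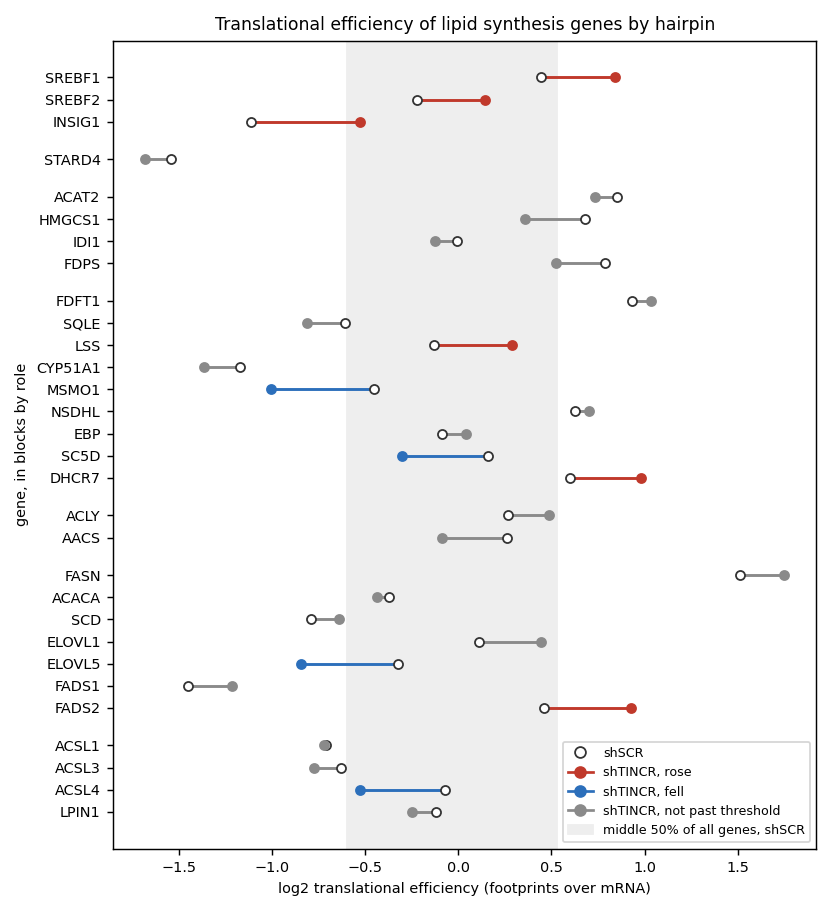
Log2 TE (horizontal axis) of the 30 measured members (vertical axis, in blocks by role) in shSCR cells (open points) and shTINCR cells (filled points). Lines join the 2 values of a gene and are red where TE rose, blue where it fell and grey where the change did not pass; the shaded band holds the middle 50% of all genes in shSCR cells, from -0.60 to 0.53. FASN has the highest TE and STARD4 the lowest in both conditions.

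Before the hairpins are compared, the levels in shSCR cells show how differently these mRNAs were loaded with ribosomes. FASN, the fatty acid synthase, had a log2 TE of 1.51 in the authors' deposited table, above 96.7% of all genes. Next came FDFT1 (squalene synthase) at 0.93, ACAT2 (which joins acetyl-CoA units at the head of the mevalonate route) at 0.85 and FDPS (farnesyl diphosphate synthase) at 0.79 in the authors' deposited table. At the other end, the sterol carrier STARD4 stood at -1.54 and the desaturase FADS1 at -1.45 in the authors' deposited table, above only 5.46% and 6.41% of all genes. TE was above 0 on the log2 scale for 13 members in shSCR and 14 in shTINCR cells. The values of SREBF2, LSS and EBP crossed 0 upwards and those of SC5D and AACS downwards.

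The regulators were 3 measured genes of 4 listed, and all 3 rose, against 8.23% of all genes. INSIG1, which retains SREBP precursors in the endoplasmic reticulum, had a log2 TE of -1.12 in shSCR and -0.53 in shTINCR cells in the authors' deposited table. This 1.5-fold rise was the largest among the members, and its log2 change of 0.59, with an adjusted p of 0.000906 in the authors' deposited table, lay above that of 98.7% of all genes. INSIG1 mRNA remained poorly translated relative to other genes, moving from above 11.7% to above 27.8% of them. SREBF1, whose protein drives mainly fatty acid genes, went from 0.45 to 0.84, a 1.31-fold rise (log2 change 0.39 with an adjusted p of 0.00789 in the authors' deposited table). The SREBF1 gene overlaps the coding gene RAI1 in RefSeq, and whether reads are shared was not tested. SREBF2, whose protein drives mainly cholesterol genes, went from -0.22 to 0.14, a 1.29-fold rise (log2 change 0.37 with an adjusted p of 0.0238 in the authors' deposited table). At an adjusted p below 0.01, SREBF1 and INSIG1 passed; with Benjamini-Yekutieli adjustment INSIG1 alone did, and with Bonferroni adjustment 0 of the 3. The median log2 change of the regulators was 0.39. The difference between the classes was not tested, because 3 genes chosen with earlier results known are no sample.

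Both SREBF genes carry within their span a microRNA of the miR-33 family, known to repress cholesterol export and fatty acid oxidation genes. The mature sequences are shown because they tie the pair of regulators together at the level of the gene; the microRNAs themselves were not measured. Capitals mark the seed, bases 2 to 8, which the pair shares (RefSeq, GRCh38.p14).
hsa-miR-33a-5p, in SREBF2, chr22:41900949-41900969, plus strand: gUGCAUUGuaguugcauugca
hsa-miR-33b-5p, in SREBF1, chr17:17813897-17813916, minus strand: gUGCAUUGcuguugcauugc
The first 20 bases of the pair differ at 2 positions, both outside the seed.

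The promoters of the members were searched because SREBPs and their partner NF-Y bind many of these genes. RefSeq windows (250 bases before to 50 after an annotated start, both strands, GRCh38.p14) were held for 26 of the 30 measured members. The sterol regulatory element, searched only in the form TCACNCCAC, was found in SREBF2 and ACSL1, 7.69% of these members. It was found in 1.39% of the 27305 genes with a window and in 1.5% of those in the table. Any of a gene's windows counted, and ACSL1 has 5. The NF-Y box CCAAT was found in 20 of the 26 members (76.9%), against 39.7% of all genes with a window and 44.8% of the 3735 with a row in the table. Members with the NF-Y box included 5 of the 6 that rose and 3 of the 4 that fell, so it did not separate the directions. The E-box CACGTG was found in INSIG1, LSS, SC5D and ELOVL5, which are 15.4% of the members, against 8.77% of all genes with a window and 14.6% of those in the table; 2 of these rose and 2 fell. A match of letters is not a binding site, and a missing match does not show that a site is absent. The table holds no measure of transcription. The 250 bases upstream of the start are given for SREBF2 and INSIG1, the regulators with matches, with the matched motifs, which do not overlap, in capitals.
SREBF2, chr22:41832855-41833104, plus strand: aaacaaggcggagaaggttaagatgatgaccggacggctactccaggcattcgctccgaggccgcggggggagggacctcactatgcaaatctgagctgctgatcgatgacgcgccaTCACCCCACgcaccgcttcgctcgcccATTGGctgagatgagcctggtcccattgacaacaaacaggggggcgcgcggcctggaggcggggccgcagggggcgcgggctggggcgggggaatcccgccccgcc
INSIG1, chr7:155297628-155297877, plus strand: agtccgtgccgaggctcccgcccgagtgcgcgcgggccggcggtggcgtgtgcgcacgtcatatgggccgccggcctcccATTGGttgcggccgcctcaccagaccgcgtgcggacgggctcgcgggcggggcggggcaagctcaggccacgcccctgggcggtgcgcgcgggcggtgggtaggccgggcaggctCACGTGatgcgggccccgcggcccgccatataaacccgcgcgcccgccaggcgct
In SREBF2 the sterol regulatory element lay 133 to 125 bases before the annotated start and the NF-Y box, read on the other strand as ATTGG, 106 to 102 bases before it. In INSIG1 the NF-Y box lay 170 to 166 bases and the E-box 55 to 50 bases before the start.

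Sterol enzymes numbered 13 measured genes of 18 listed, of which 2 rose, 2 fell and 9 did not pass, with a median log2 change of -0.12. The share was 15.4% in each direction, against 8.23% of all genes that rose and 8.17% that fell. The mevalonate steps, which build the isoprenoid units, all lay below 0 and 0 of 4 passed, although the unadjusted p of the authors' test was below 0.05 for 2 of them. HMGCS1, which makes the precursor HMG-CoA, had a log2 TE of 0.68 in shSCR and 0.36 in shTINCR cells (log2 change -0.32 with an adjusted p of 0.0915 in the authors' deposited table). FDPS stood at 0.79 and 0.52 (log2 change -0.27 with an adjusted p of 0.0627 in the authors' deposited table). Values of ACAT2 and of the isomerase IDI1 were smaller, at -0.12 each (adjusted p of 0.527 and 0.569 in the authors' deposited table). FDPS has 10 named pseudogenes and IDI1 has 3 in the RefSeq table, with which reads can be shared, so their values are uncertain. The ACAT2 gene overlaps the coding genes SOD2 and TCP1, and IDI1 overlaps WDR37. Whether reads are shared there was not tested.

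The steps from squalene to cholesterol held the 4 called sterol enzymes, among 9 measured genes of 11 listed. LSS, which folds the squalene chain into lanosterol, had a log2 TE of -0.13 in shSCR and 0.29 in shTINCR cells, a 1.33-fold rise (log2 change 0.42 with an adjusted p of 0.0483 in the authors' deposited table). DHCR7, the last step to cholesterol in one branch of the route, went from 0.60 to 0.98, a 1.31-fold rise (log2 change 0.39 with an adjusted p of 0.0333 in the authors' deposited table). These are the called members nearest to the threshold, and LSS was the last to pass.

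Both sterol enzymes that fell are membrane-bound enzymes of the same di-iron family, acting on the ring between LSS and DHCR7. MSMO1, which removes methyl groups from the sterol ring, had a log2 TE of -0.45 in shSCR and -1.01 in shTINCR cells in the authors' deposited table. Its TE in shTINCR cells was 0.682-fold of that in shSCR cells, the largest fall among the members (log2 change -0.55 with an adjusted p of 0.00781 in the authors' deposited table), and 53rd from the bottom of all 4616 genes. SC5D, which introduces a double bond into the ring, went from 0.16 to -0.30, to 0.727-fold (log2 change -0.46 with an adjusted p of 0.0144 in the authors' deposited table). Thus neighbouring steps of 1 route had opposite calls, as the plot of changes in pathway order shows.

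The remaining sterol enzymes did not pass. SQLE, the squalene epoxidase and a rate-limiting step, and the lanosterol demethylase CYP51A1 had log2 changes of -0.20 each (adjusted p = 0.234 and 0.201), while FDFT1 stood at 0.10, NSDHL, a sterol dehydrogenase, at 0.08, and the isomerase EBP at 0.13 in the authors' deposited table. STARD4, which carries sterol between membranes and is no enzyme, had -0.13 (adjusted p of 0.611 in the authors' deposited table). CYP51A1 has 3 named pseudogenes.

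**Figure D2:**
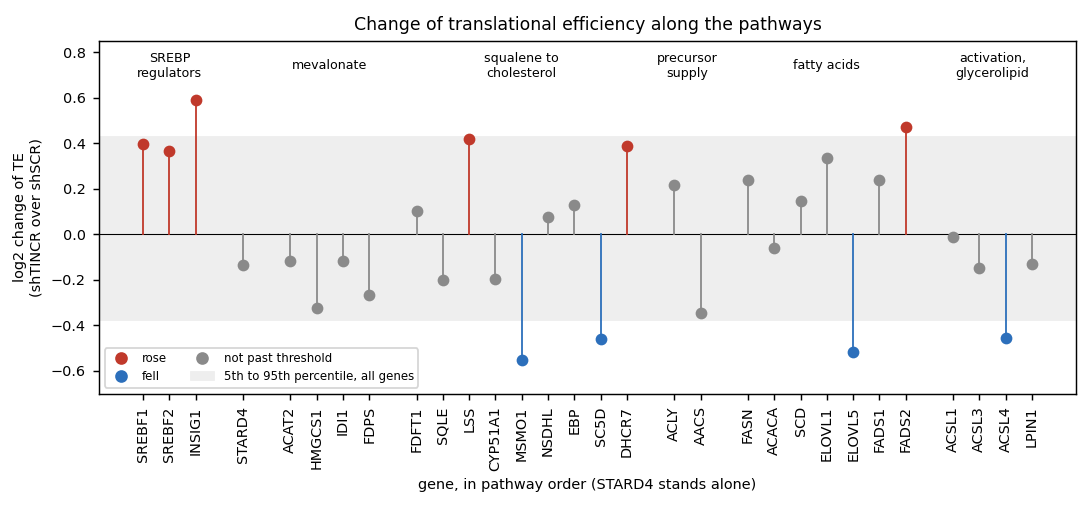
Log2 change of TE, shTINCR over shSCR (vertical axis), of the 30 measured members in pathway order (horizontal axis), red where TE rose, blue where it fell and grey where the change did not pass. The shaded band spans the 5th to 95th percentile of all genes, from -0.38 to 0.43; INSIG1, MSMO1, SC5D, ELOVL5, FADS2 and ACSL4 lie outside it and the other 24 members inside.

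The fatty acid and lipid supply genes were 13 measured genes of 14 listed. Of these 1 rose, 2 fell and 10 did not pass, with a median log2 change of -0.01. By direction 7.69% rose, against 8.23% of all genes, and 15.4% fell, against 8.17%. Of the precursor enzymes, ACLY, which cleaves citrate to acetyl-CoA, went from 0.27 to 0.49 (log2 change 0.22, adjusted p = 0.0558), the first member beyond the threshold in the authors' deposited table. AACS, which activates acetoacetate for lipid synthesis, went from 0.26 to -0.09 (log2 change -0.35 with an adjusted p of 0.0874 in the authors' deposited table). This was the largest change among the members that did not pass.

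The core of fatty acid synthesis did not pass. ACACA, the acetyl-CoA carboxylase that commits carbon to fatty acids, had a log2 change of -0.06 (adjusted p of 0.765 in the authors' deposited table). FASN went from 1.51 to 1.75 (log2 change 0.24 with an adjusted p of 0.0962 in the authors' deposited table). The table holds 2 versions of each test, and the call for FASN depended on the version: the adjusted p was 0.0903 in the first and 0.011 in the second. By direction, 9.23% of all genes rose and 8.71% fell in the first version, and 11.0% rose and 9.23% fell in the second. FASN spans a small nucleolar RNA gene, SNORD134, and LSS spans SNORD159. ACACA spans SNORA90 and overlaps the coding gene C17orf78. Whether reads of these overlapping genes enter the values was not tested.

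Elongases and desaturases, which lengthen fatty acids and add double bonds, lay on both sides of 0. ELOVL5, the elongase of polyunsaturated fatty acids, had a log2 TE of -0.33 in shSCR and -0.84 in shTINCR cells, a fall to 0.699-fold with the smallest adjusted p of all members (log2 change -0.52 with an adjusted p of 9.99e-05 in the authors' deposited table). ELOVL1, the elongase of very long saturated chains, lay on the other side of 0, going from 0.11 to 0.44 (log2 change 0.33 with an adjusted p of 0.0938 in the authors' deposited table). Whether the pair differed from each other was not tested. FADS2, the desaturase that opens the polyunsaturated route, went from 0.46 to 0.93, a 1.39-fold rise (log2 change 0.47 with an adjusted p of 0.0261 in the authors' deposited table). FADS1, the later desaturase of the same route, went from -1.45 to -1.21 (log2 change 0.24 with an adjusted p of 0.169 in the authors' deposited table). The FADS1 and FADS2 genes overlap each other in the RefSeq table, so reads in the shared stretch are uncertain where strand was not used, a detail the sources used here do not give. SCD, which makes monounsaturated fatty acids, stood at -0.79 and -0.64 (log2 change 0.15 with an adjusted p of 0.243 in the authors' deposited table).

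The acyl-CoA synthetases, which activate fatty acids with coenzyme A, and LPIN1, a phosphatidate phosphatase, had log2 changes at or below -0.01. ACSL4, which prefers arachidonate and other polyunsaturated chains, went from -0.07 to -0.53, a fall to 0.730-fold (log2 change -0.45 with an adjusted p of 0.00018 in the authors' deposited table). Its relatives ACSL3 and ACSL1 had log2 changes of -0.15 and -0.01 (adjusted p of 0.246 and 0.958 in the authors' deposited table), and LPIN1 had -0.13 (adjusted p = 0.549). Of these 4 genes ACSL4 alone passed the threshold.

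**Figure D3:**
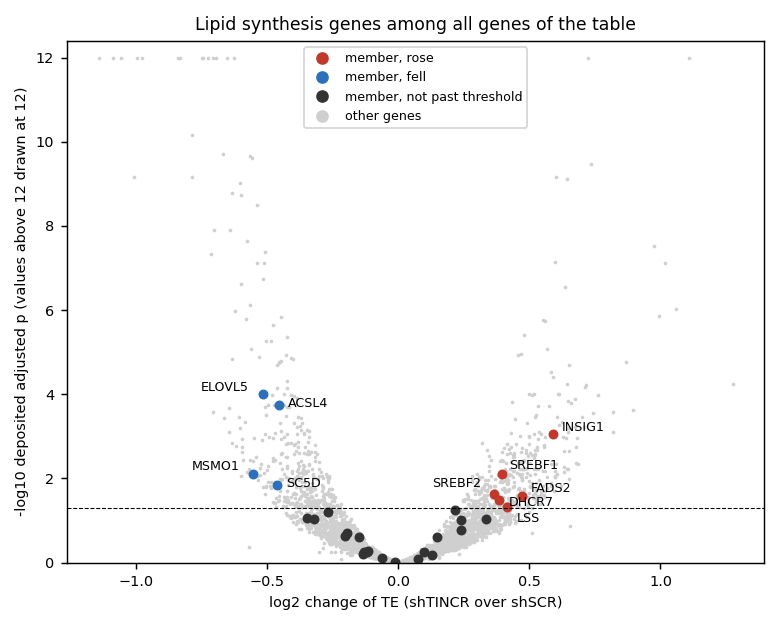
Log2 change of TE (horizontal axis) against -log10 of the deposited adjusted p (vertical axis, values above 12 drawn at 12) for all 4616 genes, with the members in colour where called and in black where not. The dashed line marks an adjusted p of 0.05; the 10 called members lie above it, between 0.37 and 0.59 to the right and between -0.55 and -0.45 to the left.

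Precision was read here from which sizes of change passed. The p-values of the authors' test differed even at like sizes. ACSL4 at -0.45 had an unadjusted p of 3.82e-06 and LSS at 0.42 one of 0.00782. Among all genes, 0 of the 2701 with a change under 0.2 on the log2 scale passed, 45.9% of those from 0.3 to 0.4, and 97.6% of those of 0.5 or more. Of the members, 3 of 6 passed from 0.3 to 0.4 and 7 of 7 at 0.4 or more, a size at which 88.6% of all genes passed. The smallest called change was 0.37 in size (SREBF2) and the largest that did not pass 0.35 (AACS). The 20 members that did not pass include 6 for which the unadjusted p was below 0.05, namely ACLY, FASN and ELOVL1 above 0 and FDPS, AACS and HMGCS1 below. That these genes did not pass does not show that their TE was the same.

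Because TE concerns the mRNA, the annotated transcript starts were compared as well. Messenger RNAs that begin with C and a run of pyrimidines (terminal oligopyrimidine, or TOP, mRNAs) are known to be regulated as a group through mTOR. A start of C followed by at least 4 pyrimidines was found in 329 of the 3735 genes of the table with a RefSeq window (8.81%). Of these 22.8% fell, against 6.90% of the other 3406 genes, and their median log2 change was -0.09, against 0.02. Of the 26 members with a window, 3 had such a start: ELOVL5, which fell, SREBF2, which rose, and LPIN1 at 1 of its 3 annotated starts, which did not pass. The starts are shown from 10 bases before to 20 bases after the first transcribed base, with the pyrimidine run in capitals, beside those of INSIG1 and MSMO1, the largest rise and fall, which have no run.
ELOVL5, chr6:53348931-53348960, minus strand: cggcgccttcCTCTTCCCatcgcgcgggtc
SREBF2, chr22:41833095-41833124, plus strand: ccgccccgccCTTTCTgtgcggcgcccggg
LPIN1, chr2:11724305-11724334, plus strand: caacaatggcCTTTCCCaggagagcccatg
INSIG1, chr7:155297868-155297897, plus strand: gccaggcgctgcggccgtcccgggccgtga
MSMO1, chr4:165327659-165327688, plus strand: tggcccacccggctccacccccaagccagg
The runs were 8 bases in ELOVL5, 7 in LPIN1 and 6 in SREBF2. Which starts WM902B cells use was not measured.

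Base composition and gene length moved with the TE change over the whole table, and their part in the members' values was not tested. Median GC content of the 300-base promoter window was 68.3% in genes that rose and 61.8% in genes that fell, and median genomic span was 18.3 and 37.5 kb. Across genes, which are not independent replicates, Spearman's rho of the log2 change was 0.172 with GC content (n = 3735) and -0.205 with span (n = 4463). Among the members rho was 0.165 with GC content (n = 26) and -0.153 with span (n = 30), of the same sign as over all genes. The 6 members that rose had a median GC content of 69.5% (65.8 to 78.3%). The 4 that fell had one of 68.9% (57.3 to 77.7%), a smaller gap than over all genes, with overlapping ranges. The median span of these 6 was 33.0 kb and that of these 4 was 51.1 kb, again with overlapping ranges.

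Neighbouring lipid pathways, in 5 lists that hold no member, had 60 measured genes of 124. Of these 7 rose and 4 fell, or 18.3%, next to 16.4% of all genes. Other fatty acid genes held 3 that rose (27.3%) and 0 that fell of 11 measured, next to 8.23% and 8.17% of all genes. FADS3, the third gene of the FADS cluster, went from a log2 TE of -0.18 to 0.56, a 1.67-fold rise (adjusted p of 0.000275 in the authors' deposited table) and larger than that of any member. The acyl-CoA thioesterase ACOT7 and MECR, a reductase of mitochondrial fatty acid synthesis, rose by 0.32 and 0.49 on the log2 scale, whereas the citrate carrier SLC25A1 had 0.30 and did not pass (adjusted p of 0.0702 in the authors' deposited table). In the second version of the authors' test SLC25A1 passed (adjusted p = 0.0299), and 5 genes of the list rose. All 3 FADS genes thus had log2 changes above 0, and FADS2 and FADS3 passed.

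Among 17 measured genes of sterol regulation, uptake and export 2 rose (11.8%) and 1 fell (5.88%), next to 8.23% and 8.17% of all genes. Glycerolipid and phospholipid synthesis had 11 measured genes, of which 1 rose (9.09%) and 0 fell. The gene that rose was LPCAT3, which loads polyunsaturated chains into phospholipids (log2 change 0.46 with an adjusted p of 0.0483 in the authors' deposited table). The values of LPCAT1, PCYT2 and PTDSS2, all of phospholipid synthesis, were 0.36, 0.38 and 0.27 in the authors' deposited table, and none passed in the final test. LPCAT1 passed in the first version and in the second (adjusted p of 0.0426 and 0.0474), so that 2 genes of the list rose in each. This list had the highest median of the 5, at 0.22.

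In fatty acid oxidation, the opposing pathway, 1 of 15 measured genes rose (6.67%) and 2 fell (13.3%), with a median of -0.09. Of all genes 8.23% rose and 8.17% fell. The dehydrogenase ACADM and the trifunctional protein subunit HADHA fell by 0.48 and 0.33 on the log2 scale (adjusted p = 0.00337 and 0.0128), and the electron carrier ETFB rose by 0.33 (adjusted p of 0.0134 in the authors' deposited table). The isomerase ECI1 had 0.31 (adjusted p of 0.0811 in the authors' deposited table). The isoprenoid branch, which uses mevalonate products to modify proteins, had 6 measured genes, of which 1 fell (16.7%) and 0 rose. RABGGTB, the catalytic subunit that attaches geranylgeranyl groups to Rab proteins, fell to 0.581-fold (adjusted p of 6.88e-11 in the authors' deposited table), while its partner subunit RABGGTA had a log2 change of 0.43 (adjusted p of 0.0747 in the authors' deposited table). The methyltransferase ICMT and the protease ZMPSTE24, which finish prenylated proteins, had 0.28 and 0.09 in the authors' deposited table and did not pass. Overlap with other genes, small nucleolar RNA genes included, was looked up for the members only and not for RABGGTB or other genes of these lists.

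**Figure D4:**
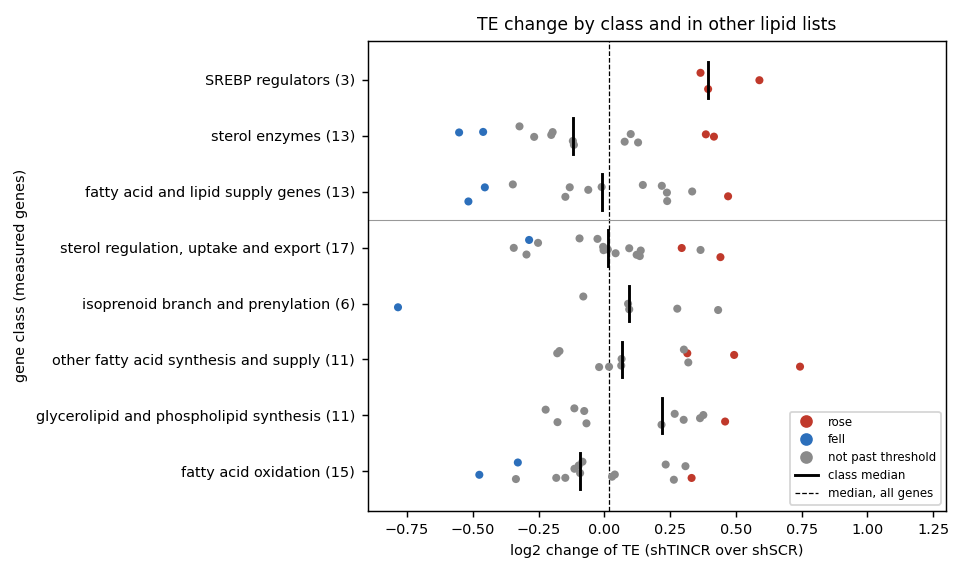
Log2 change of TE (horizontal axis) of each measured gene in the 3 member classes (above the line) and 5 other lipid lists (below it), with the number of genes in brackets; points are red where TE rose, blue where it fell and grey where it did not pass. Black bars are class medians (0.39 for regulators, -0.12 for sterol enzymes, -0.01 for fatty acid and lipid supply genes) and the dashed line is the median of all genes, 0.02.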

How the data were processed

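Per the file headers, the deposited table lists a log2 TE for each hairpin and a log2 change in 2 versions, with a final one besides. Among the measured members the final p equalled that of the first version for 16 and of the second for 14. It was in each case the larger of the 2. Each version has a p-value, and the final p-value is also given adjusted over all genes (deposited). Genome build hg19 and the tools HTSeq 0.5.3p9, TopHat2 2.0.8, DESeq 1.10.1, Bowtie2 2.1.0, CASAVA 1.9 and SAMtools 0.1.18 are listed, their roles unstated, per the submitters' processing notes. The tool of the TE test, the filter on genes and the handling of multi-mapping reads are not given in the labels or the table. The RNA libraries, titled as total RNA, are poly(A) RNA per the labels, and cycloheximide can shift footprints along an mRNA.

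Without values of each library the planned count test could not be run, so the deposited changes and their p-values were used. A gene counted as changed where its deposited adjusted p was below 0.05. The p-values of each version, deposited unadjusted, were adjusted over all genes by the Benjamini-Hochberg method. Folds are 2 to the power of the log2 change, and percentiles are over all 4616 genes. The members, roles and gene lists were chosen with earlier results of these data known. Every measured member is named; from each other list the 4 smallest p-values and up to 4 more past the threshold are named, and some of these are not reported here. Windows, microRNAs and gene spans came from RefSeq tables of GRCh38.p14, matched by symbol. Protein sequences were not used here, so the planned protein features were not computed. Alternatives were other p-value adjustments and thresholds, each version alone, centring, a fold minimum and sets without members that share or overlap other genes. Computation was in Python 3.11.15 (numpy 2.4.6, scipy 1.17.1, pandas 2.3.3, matplotlib 3.10.9), and the adjustment code was tested on simulated data.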

Additional observations from a re-analysis of the deposited data

How the results depend on the processing

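The 10 calls were kept in each version of the authors' test alone. For each measured member the final p was the larger of the 2 versions' p-values. Keeping the calls is therefore no independent check. The second version added ACLY and FASN above 0 and FDPS below. Centring, which moved values by 0.02, and a minimum log2 change of 0.3 could not change a member's call, since calls rest on the deposited adjusted p and the smallest called change was 0.37. At an adjusted p below 0.01, 2 members rose and 3 fell, next to 3.62% and 4.2% of all genes. At an adjusted p below 0.1, 9 rose and 7 fell, next to 11.5% and 10.4%. With Benjamini-Yekutieli adjustment 1 member rose and 2 fell, next to 2.58% and 3.27% of all genes. With Bonferroni adjustment 0 rose and 2 fell, ELOVL5 and ACSL4, next to 0.975% and 1.62%. Regulators that rose numbered 3 in the final test, 1 with Benjamini-Yekutieli and 0 with Bonferroni adjustment. Without the 6 members with named pseudogenes, none of them called, the median log2 change was -0.02 for sterol enzymes and 0.10 for fatty acid and lipid supply genes. An alternative chosen after seeing the data left out the 12 members that overlap coding, snoRNA or miRNA genes. Of the 18 members left, 2 rose and 3 fell, next to 8.23% and 8.17% of all genes, from which none were left out. INSIG1 alone remained of the regulators, at 0.59. Older symbols added 0 members. Of the neighbouring lists, fatty acid oxidation went from 1 gene that rose to 2 in the second version, and the isoprenoid branch from 0 to 1, whereas sterol regulation, uptake and export kept its counts in both versions. No paired analysis was possible because the table holds no values of single libraries, and leaving out a replicate was not run for the same reason.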
